A study of Mus musculus with 13 samples.

Results

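The G1/S and DNA replication genes described here are 43 protein-coding genes out of the 35498 genes to which reads were summed. They were taken from a list of symbols by their known roles. The list was drawn up with earlier results of these data known, and each gene had reads in all 13 libraries. The libraries hold poly(A) RNA of mouse melanoma cell lines grown in culture, in a series on soluble adenylyl cyclase (sAC, encoded by Adcy10) expressed in compartments of the cell after doxycycline, an antibiotic that switches on inducible constructs. Lines titled NLS, numbered 6, 7 and 16, were sampled at the labels t0 (no doxycycline), t6 (6 h of doxycycline) and t48 (48 h), which gives 3 libraries at each label. Lines titled LacZ, numbered 10 and 12, were sampled at t0 and t48, which gives 2 libraries at each. The compartment given for the NLS libraries under doxycycline is nuclear, and at t0 it is none. Both LacZ t48 libraries are labelled nuclear as well, and here their titles set the group. Not given in the sources used here were the mouse strain, the parental tumour and whether a line is 1 clone, and cytoplasmic and mitochondrial expression was not analysed here.

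Cells commit to DNA replication late in G1, when cyclin E with its kinase frees E2F transcription factors from the retinoblastoma protein and E2F factors switch on the genes of the replication machinery. ORC, CDC6 and CDT1 load the MCM helicase ring on origins, and CDC45 with the GINS complex turns the ring into an active helicase. Polymerases, the sliding clamp PCNA and its RFC loader then copy the strands, FEN1 and LIG1 join the lagging-strand pieces, ribonucleotide reductase with TYMS, TK1 and DUT supplies nucleotides, and SLBP, UHRF1 and the CAF-1 subunits serve the new chromatin. Levels of these transcripts follow the share of cultured cells in late G1 and S phase as well as transcription within each cell. In bulk RNA, fewer cells in a phase and less RNA per cell cannot be told apart.

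Depth was 18512887 to 22584628 estimated reads per library, and the least abundant of the 43 genes, E2f2, had 50 to 225 reads per library. Adcy10 did not follow the time labels. It lay at 366, 200.4 and 0.671 CPM (depth-scaled counts on TMM library sizes) in NLS lines 6, 7 and 16 at t0, at 371, 181 and 1.19 CPM at t6 and at 339, 199 and 1.22 CPM at t48, and at up to 0.167 CPM in the 4 LacZ libraries. Lines 6 and 7 were thus high without doxycycline and line 16 was low with it, so t0, t6 and t48 are used below as names of labelled libraries. Of 7 melanocyte markers, 6 lay under 1 CPM in all 13 libraries and Tyrp1 was listed at 0. The summed level of 7 fibroblast markers was 5512 to 5738 CPM in LacZ t0, 4945 to 5421 in LacZ t48, 7292 to 9198 in NLS t0, 6060 to 7806 in NLS t6 and 1.08e+04 to 1.183e+04 in NLS t48. Col1a1 and Col1a2, the collagen I genes, made up most of this sum, and Lum and Thy1 were at or near 0. At t48 against t0 in NLS lines these collagens were called higher (0.53 and 0.29 on the log2 scale), while Pdgfra (-0.18), Pdgfrb (-0.03) and Dcn (-0.27) were not called. The part of these genes in the results was not tested. Leukocyte, keratinocyte and endothelial lists summed to 5.79 to 14.5, 2.05 to 4.83 and 2.23 to 4.53 CPM, with Cd3e, Adgre1 and Kdr at 0 in every library.

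Promoter sequence from RefSeq (GRCm38.p6, 250 bases before the first listed start of each gene) was matched for 36 of the 43 genes. Mcm4, Ccne2, Gins1, Gins2, Gins4, Pole and Rfc2 had no entry. The E2F words TTTGGCGC, TTTCGCGC, TTTCCCGC and TTTGCCGC, searched on both strands with overlaps allowed, were in 9 of the 36 windows (25.0%), against 1.91% of 27025 promoters and 3.44% of the 9749 promoters of genes tested. In the last 100 bases the shares were 11.1%, 0.84% and 1.48%. The 9 genes were Orc1, Cdc6, Mcm5, Mcm6, Mcm7, Gins3, Pola1, Rfc3 and E2f7. The windows of Orc1, Cdc6, Mcm7, Gins3 and Rfc3 overlap an annotated exon, by 133, 81, 250, 106 and 34 of their 250 bases. CCAAT was in 63.9% of the 36 windows, against 34.5% of all promoters and 37.2% of those of genes tested. The cell-cycle homology words TTTGAA and TTCGAA were in 19.4%, against 17.4% and 12.3%. A match is a stretch of letters and not a measured binding site. The 4 windows below are printed to show how such words sit before genes that differ in their behaviour across the libraries. They are those with an E2F word that touch no annotated exon, and capitals mark the words. Coordinates are GRCm38, and each sequence runs 5′ to 3′ on the strand of its gene.
Mcm5, chr8:75109259-75109508, plus strand: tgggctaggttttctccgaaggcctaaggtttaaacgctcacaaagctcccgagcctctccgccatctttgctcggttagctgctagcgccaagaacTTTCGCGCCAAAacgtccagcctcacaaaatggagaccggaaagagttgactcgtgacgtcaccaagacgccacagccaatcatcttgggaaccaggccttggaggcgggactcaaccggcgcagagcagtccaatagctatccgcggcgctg
E2f7, chr10:110745189-110745438, plus strand: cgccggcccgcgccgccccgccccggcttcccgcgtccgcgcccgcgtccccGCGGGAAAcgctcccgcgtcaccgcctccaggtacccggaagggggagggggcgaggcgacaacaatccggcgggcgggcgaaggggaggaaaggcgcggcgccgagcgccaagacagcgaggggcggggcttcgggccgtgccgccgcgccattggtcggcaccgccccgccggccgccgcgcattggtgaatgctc
Pola1, chrX:93632156-93632405, minus strand: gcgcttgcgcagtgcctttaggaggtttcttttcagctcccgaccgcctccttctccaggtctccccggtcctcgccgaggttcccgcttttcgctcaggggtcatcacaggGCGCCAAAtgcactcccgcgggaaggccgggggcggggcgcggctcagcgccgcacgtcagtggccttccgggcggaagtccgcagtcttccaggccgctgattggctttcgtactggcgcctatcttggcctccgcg
Mcm6, chr1:128359706-128359955, minus strand: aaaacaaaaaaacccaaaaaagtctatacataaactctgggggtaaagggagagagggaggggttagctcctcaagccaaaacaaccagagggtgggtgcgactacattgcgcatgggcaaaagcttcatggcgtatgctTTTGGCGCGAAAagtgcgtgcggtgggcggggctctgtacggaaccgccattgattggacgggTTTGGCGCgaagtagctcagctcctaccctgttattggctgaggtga
Mcm5 holds 2 overlapping words on opposite strands that start 153 and 149 bases before its start site. Mcm6 holds such a pair at 110 and 106 bases and another word at 47 bases. E2f7 and Pola1 hold 1 word each, at 198 and 138 bases.

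On the TPM scale, which divides reads by transcript length and so allows levels of different genes to be compared, the 43 genes spanned means over 13 libraries of 2.75 to 258.2. Pcna, the sliding clamp, was highest at 258.2 TPM, followed by Mcm6 at 156 and Tk1 at 153.5. E2f2 was lowest at 2.75, below Orc1 at 7.18 and Gins3 at 7.35. Neighbours in this order mostly overlapped over the libraries: Tk1 ranged from 117 to 213 TPM and Dut, next in order, from 131 to 171. Among MCM2 to MCM7, Mcm6 was highest and Mcm2 lowest in 13 of 13 libraries, 2- to 2.47-fold apart. Among the 4 GINS subunits, Gins3 was lowest in 13 and Gins4 highest in 12 libraries, 5.35- to 7.59-fold apart. Of the RFC subunits tested, Rfc2 was highest in 13 and Rfc4 lowest in 10 libraries. The Rfc2 sum includes models with retained introns, which took means of 29.7, 20.4 and 7.69% of its reads. Its coding model Rfc2-201 took a mean of 41.5%. For ribonucleotide reductase the order reversed, with Rrm1 above Rrm2 in 9 of 13 libraries.

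**Figure D1:**
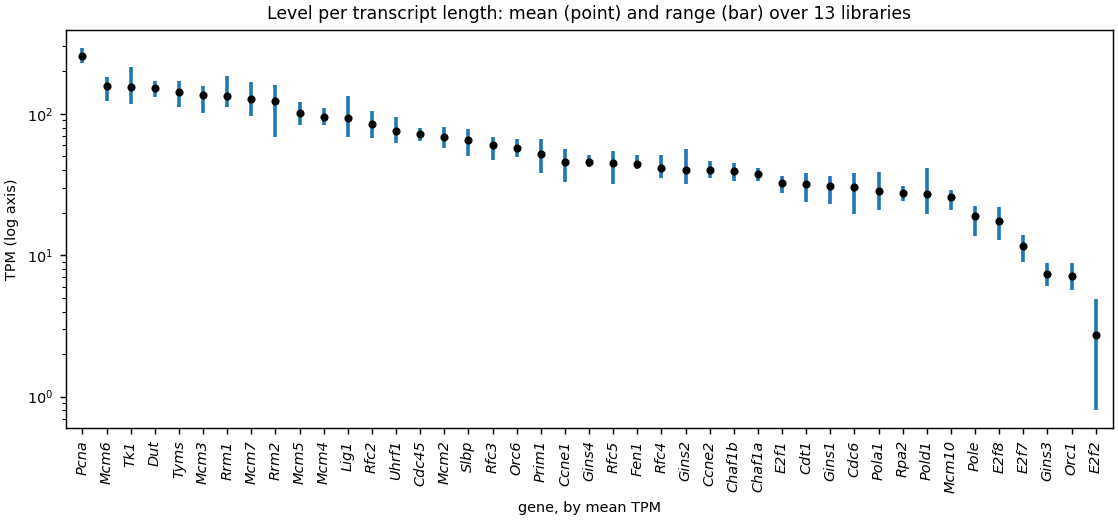
Level of each of the 43 genes in TPM (log axis), in order of the mean; points are means and bars the range over 13 libraries. Pcna has the highest mean at 258.2 TPM and E2f2 the lowest at 2.75, and E2f2 has the widest range relative to its level.

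In the NLS lines at t6 against t0, 7 of the 43 genes were higher, among them Rrm1, Ccne1 and E2f8, and the largest rise was 0.43 on the log2 scale. Called means an adjusted p below 0.05 (edgeR quasi-likelihood test, Benjamini-Hochberg over 13044 genes), and over all genes tested 11.6% were called higher in this comparison, 9.23% lower and 20.8% in either direction. The share of the 43 genes was thus near the background. No member was called lower. At an unadjusted p below 0.05 there were 12 higher and 2 lower, and DESeq2 called 8 higher and 0 lower. The median fitted log2 fold change of the 43 genes was 0.07, against -0.003 over all genes tested. Every t6 library was above every t0 library in 17.9% of all genes tested and below in 16.5%.

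Rrm1, the large subunit of ribonucleotide reductase (ENSMUSG00000030978, GRCm38 chromosome 7, 102441695 to 102469771, plus strand), lay at 280.3, 318 and 272 CPM in NLS lines 6, 7 and 16 at t0 and at 388, 414 and 372 CPM at t6. All t6 libraries were above all t0 libraries (log2 fold change 0.43 ± 0.06 SE, adjusted p = 0.000321). At t48 the values were 321, 317 and 312 CPM, below every t6 library (log2 fold change -0.31 ± 0.06 SE, adjusted p = 0.00219) and not called against t0 (0.13, adjusted p = 0.153). Its partner Rrm2, the small subunit whose transcript is cell-cycle regulated, lay at 173, 189 and 172 CPM at t0 and at 166, 189 and 166 CPM at t6, with overlapping groups (log2 fold change -0.04, adjusted p = 0.781). The Rrm1 to Rrm2 ratio of TPM was 0.795 to 0.832 in NLS t0, 1.12 to 1.16 in NLS t6 and 0.996 to 1.10 in NLS t48 libraries, which do not overlap. In LacZ libraries it was 1.26 to 1.65.

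E2f8, a repressor of the E2F family that acts on S-phase genes, lay at 31.8, 36.8 and 36.5 CPM at t0 and 44.3, 47.2 and 46.7 CPM at t6, and the groups did not overlap (log2 fold change 0.40 ± 0.07 SE, adjusted p = 0.00164). Ccne1, whose product cyclin E1 activates CDK2, is described with the t48 libraries. Pola1, the catalytic subunit of the priming polymerase, was at 66.8, 90.02 and 69.04 CPM at t0 and 89, 111 and 91.8 CPM at t6. Line 7 stood above the other lines at both labels, and its t0 library exceeded line 6 at t6 (log2 fold change 0.37 ± 0.11 SE, adjusted p = 0.0354). Lig1, the ligase of lagging-strand pieces, was called too, with log2 fold change 0.31, as were Pold1, the catalytic subunit of polymerase delta (0.40), and Tk1, thymidine kinase (0.22). Pold1 lay at 38.5, 37.02 and 38.8 CPM in lines 6, 7 and 16 at t0. At t6 it lay at 38.3, 54.2 and 58.4 CPM, so it did not rise in line 6 and the groups overlapped. Rrm1, Ccne1 and E2f8 kept the call in every fit that left out 1 library or 1 line. The other 4 calls did not, and the count was 3 without NLS t0 line 16, NLS t0 line 6 or NLS t6 line 7 and 4 without NLS t6 line 16. With the cell line number as a replicate block, 13 genes were called (11 higher, 2 lower), with Mcm2, Mcm3, Gins2, Prim1, Ccne2 and E2f2 added. Pcna (0.03), Cdc6 (0.05), Slbp (-0.02), E2f1 (0.14), Mcm2 (0.12) and Ccne2 (0.23) were not called without the block, with adjusted p from 0.0825 (Ccne2) to 0.897 (Slbp).

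At t48 against t0 in the NLS lines, 17 of the 43 genes were lower and 1, Ccne1, was higher. Over all genes tested 11.3% were called lower, 14.8% higher and 26.1% in either direction. The comparison shares its t0 libraries with that of t6 against t0. Every t48 library was above every t0 library in 21.6% of all genes tested and below in 18.9%. The median fitted log2 fold change of the 43 genes was -0.16, against -0.007 over all genes, and 32 genes (74.4%) were lower in each of the 3 lines, as were 32.1% of all genes, while 6 (14%) were higher in each, as were 32.4% of all genes. Calls by role were 2 lower of 7 in the MCM group, 2 of 5 for Cdc45 and GINS, 6 of 10 for polymerases, clamp and clamp loader, 3 of 5 for nucleotide supply, 2 of 6 with 1 higher for cyclins and E2F factors, and 2 of 4 for histone and chromatin factors. Of the fibroblast markers, Col1a1 and Col1a2 were higher in every NLS t48 library than in every NLS t0 library, and the other 3 tested had negative fitted changes that were not called.

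Tk1, which salvages thymidine (ENSMUSG00000025574, GRCm38 chromosome 11, 117815526 to 117826092, minus strand), was among the clearest. It lay at 141, 138 and 135 CPM in lines 6, 7 and 16 at t0, at 146, 177 and 159 CPM at t6 and at 94.9, 102 and 102 CPM at t48. Every t48 library was below every t0 and t6 library (log2 fold change -0.47 ± 0.07 SE, adjusted p = 0.000338 against t0; log2 fold change -0.69 ± 0.07 SE, adjusted p = 1.18e-05 against t6). Tyms, thymidylate synthase (ENSMUSG00000025747, GRCm38 chromosome 5, 30058202 to 30073617, minus strand), fell from 84.03, 88.5 and 84.2 CPM at t0 to 70.1, 66.1 and 66.6 CPM at t48. Its groups did not overlap (log2 fold change -0.34 ± 0.05 SE, adjusted p = 0.000373), while t6 libraries lay at 86.4, 90.6 and 85.95 CPM, within the range of t0 and just above it. Rrm2 was at 156, 155 and 148 CPM at t48, below the t0 values given above in every line (log2 fold change -0.22 ± 0.07 SE, adjusted p = 0.0474). Its call was lost without any 1 of the 6 libraries compared, with adjusted p up to 0.140 (without NLS t0 line 7). Dut, which clears dUTP, was not called (-0.15, adjusted p = 0.136).

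Ccne1 (ENSMUSG00000002068, GRCm38 chromosome 7, 38097984 to 38107534, minus strand) moved the other way. It lay at 31.6, 32.1 and 33.7 CPM in NLS lines 6, 7 and 16 at t0, 41.9, 42.5 and 40.3 CPM at t6 and 53.01, 48.3 and 51.9 CPM at t48. The 3 labels did not overlap, and the order t0, t6, t48 held in each line (log2 fold change 0.65 ± 0.06 SE, adjusted p = 5.71e-06 for t48 against t0; log2 fold change 0.36 ± 0.06 SE, adjusted p = 0.00142 for t6 against t0; log2 fold change 0.30 ± 0.06 SE, adjusted p = 0.00257 for t48 against t6). Without line 6, the t48 to t6 difference had an adjusted p of 0.0508. Ccne2, the other cyclin E gene, lay at 19.9, 23.1 and 19.6 CPM at t0 and 20.2, 21.2 and 19.5 CPM at t48, with overlap (-0.04, adjusted p = 0.782). The Ccne1 to Ccne2 ratio of TPM was 0.821 to 1.05 at t0, 1.02 to 1.16 at t6 and 1.32 to 1.52 at t48 in NLS libraries, and 1.07 to 1.30 in LacZ libraries.

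E2f2, an activator E2F (ENSMUSG00000018983, GRCm38 chromosome 4, 136172394 to 136196057, plus strand), was the member with the largest change, and the one that reached a 2-fold difference between groups. Its level was low: 6.51, 6.29 and 5.37 CPM in lines 6, 7 and 16 at t0, 3.70, 4.72 and 4.73 CPM at t6 and 3.11, 2.22 and 3.66 CPM at t48. Every t48 library was below every t6 library, and every t6 library was below every t0 library (log2 fold change -1.02 ± 0.18 SE, adjusted p = 0.000818 for t48 against t0). The nearest t48 and t6 libraries were at 3.66 and 3.70 CPM. At t6 against t0 E2f2 was called only with the line as a block. E2f1, the best-known activator, was at 47.3, 42.96 and 49.4 CPM at t0 and 51.2, 54.1 and 50.8 CPM at t48. Its t48 libraries lay above its t0 libraries, but the difference was not called (0.16, adjusted p = 0.121). E2f7, a repressor like E2f8, was called lower (log2 fold change -0.26 ± 0.08 SE, adjusted p = 0.0306), and E2f8 was not called (0.19, adjusted p = 0.0679). The E2f7 call was lost without NLS t48 line 16, NLS t48 line 6 or NLS t0 line 7, with adjusted p of up to 0.100.

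**Figure D2:**
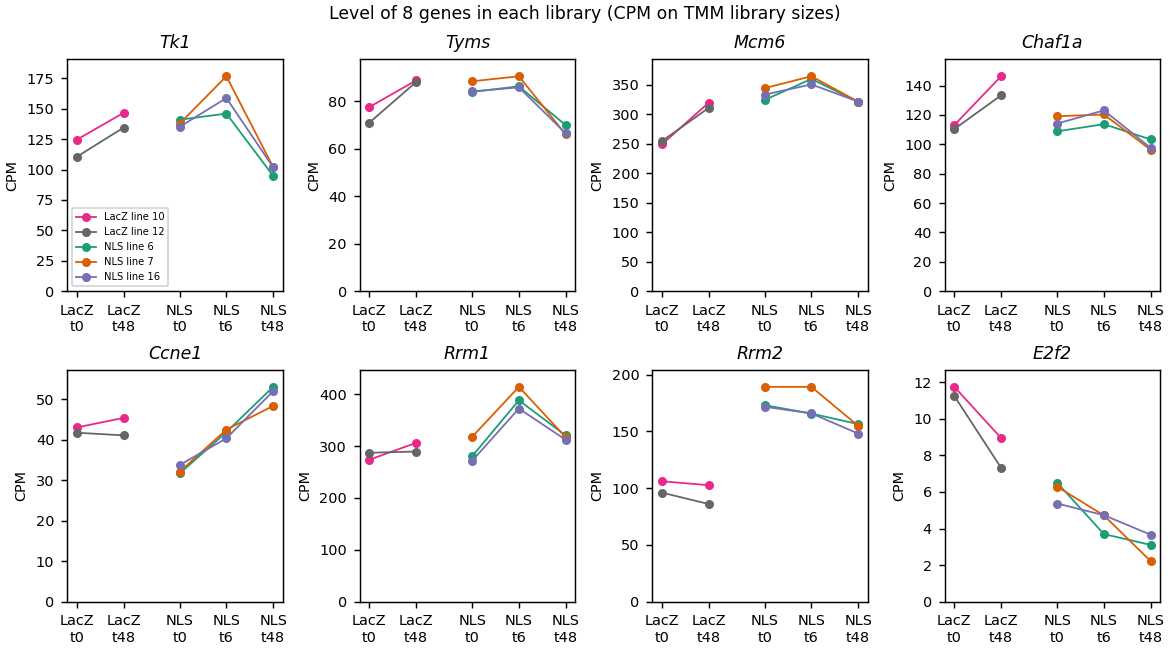
CPM of 8 genes in each of 13 libraries; each point is a library and each line joins the libraries of 1 cell line. Ccne1 rises over the 3 NLS labels from 31.6 to 33.7 CPM up to 48.3 to 53.0 CPM, Tk1 and Tyms are lowest in NLS t48, and Rrm1 peaks in NLS t6.

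Replication fork genes made up most of the other calls at t48. Mcm5, a subunit of the helicase ring, was at 181, 185 and 179 CPM at t0 and 149, 151 and 154 CPM at t48 without overlap (log2 fold change -0.26 ± 0.07 SE, adjusted p = 0.0169), and its call was lost without NLS t48 line 6 (adjusted p = 0.0568). Mcm7 was lower by a log2 fold change of -0.21. Mcm2 and Mcm6 lay below their t0 levels in each line and were not called (-0.14, adjusted p = 0.115, and -0.06, adjusted p = 0.377). Cdc45, the helicase cofactor, was lower by -0.21 and Gins2 by -0.32. In TPM, Gins2 fell in lines 6 and 16 but rose in line 7, from 40.17 to 43.73, so the groups overlapped on that scale.

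The clamp loader subunits Rfc2, Rfc3, Rfc4 and Rfc5 were each called lower, with log2 fold changes of -0.19, -0.27, -0.28 and -0.23. Rfc3 was at 55.3, 55.7 and 54.2 CPM at t0 and 45.3, 43.7 and 47.9 CPM at t48, and its libraries did not overlap (log2 fold change -0.27 ± 0.06 SE, adjusted p = 0.00607). Prim1, the primase, and Rpa2, of the single-strand binding complex, were also lower (-0.21 and -0.25). Pcna, the clamp itself, was at 175, 198 and 166 CPM at t0 and 160.1, 168 and 155 CPM at t48, with overlap (-0.16, adjusted p = 0.172). Slbp, the histone mRNA binding protein, went from 56.4, 64.4 and 49.2 to 43.3, 48.3 and 39.7 CPM (log2 fold change -0.37 ± 0.10 SE, adjusted p = 0.0143), with the call lost without NLS t48 line 16 or NLS t0 line 7 (adjusted p = 0.0540 and 0.0538). Chaf1a, the large subunit of the CAF-1 histone chaperone, was lower by -0.20 and was lost without either of the libraries of line 7. The 4 loading factors had fitted log2 fold changes of -0.19 to -0.12 and were not called, Cdc6 among them at -0.12. The calls of Tyms, Tk1, Ccne1 and E2f2 held in every fit that left out 1 library or 1 line. The count of 18 fell to 10 without NLS t0 line 7 and to 11 without any of the 3 NLS t48 libraries. With the line as a replicate block it was 28 (4 higher, 24 lower), with Cdt1, Mcm2, Mcm4, Pcna, Lig1, Dut and Uhrf1 added as lower and Rrm1, E2f1 and E2f8 as higher.

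Between t48 and t6 in the NLS lines, which share these libraries with the comparisons above, 20 genes were lower and 1 higher, with 13.6% of all genes tested lower, 14.6% higher and 28.2% in either direction. The median was -0.21 against 0.001 over all genes, and 34 genes (79.1%) were lower in each of the 3 lines, against 31.8% of all genes. Every t48 library was below every t6 library in 21.1% of all genes tested and above in 21.7%. E2f2 had the largest difference after Tk1, with values given above (log2 fold change -0.55 ± 0.18 SE, adjusted p = 0.0340). Its call was lost in 4 of 6 fits without 1 library, with adjusted p up to 0.135 (without NLS t48 line 7), and was lost without each line, with adjusted p up to 0.267 (without line 7). Next in size were Pola1 (log2 fold change -0.49 ± 0.11 SE, adjusted p = 0.00568), Lig1 (log2 fold change -0.48 ± 0.08 SE, adjusted p = 0.000699) and Prim1 (log2 fold change -0.39 ± 0.07 SE, adjusted p = 0.000685). Prim1 lay at 65.5, 65.9 and 61.02 CPM at t6 and 51.1, 47.9 and 47.6 CPM at t48. Lig1 lay at 173, 199 and 176 CPM at t6 and 129.5, 138 and 127 CPM at t48, and neither gene had overlapping groups. Tyms (-0.37), E2f7 (-0.35), Rrm1 and Pole, the leading-strand polymerase (-0.20), were lower too. Mcm2 (-0.26), Slbp (-0.35) and Ccne2 (-0.28) were called lower, while Cdc6 (-0.17), Pcna (-0.18), Rrm2 (-0.18) and E2f1 (0.02) were not. Mcm7, Pola1, Prim1, Lig1, Rrm1, Tyms and Tk1 kept the call without each library and each line, and the count was 12 without NLS t6 line 7. The block added Orc6, Cdc6, Cdt1, Mcm4, Cdc45, Pcna, Rfc2, Rfc4, Rfc5 and Rrm2.

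In the LacZ lines at t48 against t0, 14 of the 43 genes were higher and 2 lower, with 8.68% of all genes tested higher, 9.87% lower and 18.5% in either direction. The median fitted log2 fold change was 0.15 against 0.001 over all genes, and 29 genes (67.4%) were higher in both lines, as were 37.6% of all genes, while 9 (20.9%) were lower in both, as were 36.8% of all genes. Helicase genes led: Mcm2, Mcm3, Mcm4, Mcm6 and Mcm10 were 5 of 7 called higher in their group. In TPM, Mcm3 rose from 111 to 122.8 in line 10 and fell from 108.4 to 101.9 in line 12. Mcm2, Mcm4, Mcm6 and Mcm10 rose in both lines on that scale. Cdc6, Cdc45, Gins1, Lig1, Tyms, Dut, E2f8, Uhrf1 and Chaf1a made up the rest. Pole and Rfc3 were called lower, with log2 fold changes of -0.27 and -0.25.

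Mcm6 (ENSMUSG00000026355, GRCm38 chromosome 1, 128331590 to 128359664, minus strand) was at 249 and 254 CPM in LacZ lines 10 and 12 at t0 and at 319 and 310.4 CPM at t48, well apart (log2 fold change 0.32 ± 0.05 SE, adjusted p = 0.00105). Mcm2 was at 139 and 125 CPM at t0 and 172 and 151 CPM at t48 (log2 fold change 0.29 ± 0.07 SE, adjusted p = 0.0160). Both lines rose in both genes, and the groups did not overlap. Of all genes tested, 31% had both LacZ t48 libraries above both LacZ t0 libraries, and 30.3% had both below. Cdc6, which loads the helicase with ORC, was at 47.8 and 41.8 CPM at t0 and 60.6 and 50.8 CPM at t48 (log2 fold change 0.31 ± 0.10 SE, adjusted p = 0.0458). Gins1 had the largest rise that was called: 17.3 and 15.2 CPM at t0 against 24.8 and 19.7 CPM at t48 (log2 fold change 0.45 ± 0.14 SE, adjusted p = 0.0318). Chaf1a was at 113 and 110.4 CPM at t0 and 146 and 133 CPM at t48 (log2 fold change 0.32 ± 0.07 SE, adjusted p = 0.00657), and Uhrf1, which recruits the maintenance DNA methyltransferase, at 168 and 142 and 216 and 181 CPM (log2 fold change 0.36 ± 0.10 SE, adjusted p = 0.0278). In CPM, line 10 was the higher line at t48 for each of Mcm2, Cdc6, Gins1, Chaf1a and Uhrf1. In TPM the t0 and t48 libraries of Chaf1a overlapped. Those of Cdc6 overlapped too, at 23.34 and 19.43 TPM at t0 and 27.16 and 22.9 TPM at t48, with a rise in each line.

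Ccne1 lay at 43 and 41.7 CPM in the LacZ t0 libraries and 45.4 and 41.04 CPM at t48, with overlap (0.03, adjusted p = 0.843). E2f2 fell in both lines in CPM without a call, from 11.7 and 11.2 to 8.95 and 7.32 CPM (-0.50, adjusted p = 0.0928). In TPM it lay at 4.845 and 4.691 at t0 and 4.938 and 4.575 at t48, with overlap and a rise in line 10. Not called either were Tk1 (0.26, adjusted p = 0.0566), Pcna (0.14), Rrm2 (-0.10), Ccne2 (0.01), E2f1 (0.18) and Slbp (0.14). These calls rest on 2 libraries a group. Mcm6 alone kept its call without each library, and it was lost without line 10 (adjusted p = 0.0658). The count of 16 became 3 without LacZ t48 line 10, of which 1 was higher and 2 lower. It was 4 without LacZ t0 line 12 (3 higher, 1 lower) and 7 without LacZ t0 line 10 (6 higher, 1 lower). Without normalization factors it was 7, of which 5 were higher and 2 lower. The block added Orc1, Prim1, Fen1, Tk1, E2f2 and Chaf1b.

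**Figure D3:**
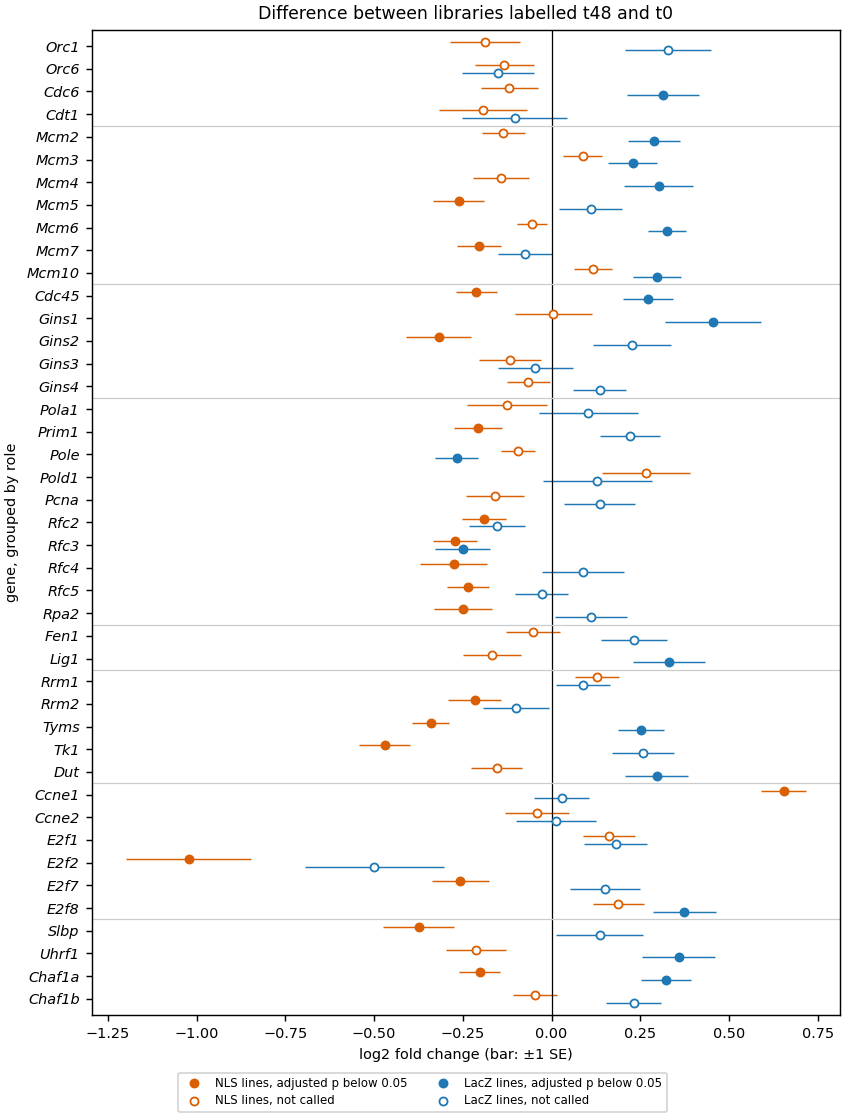
Log2 fold change (with 1 SE either way) of each gene at t48 against t0, in the NLS lines (orange, 3 against 3 libraries) and the LacZ lines (blue, 2 against 2); filled points have an adjusted p below 0.05. Most NLS points lie left of 0 and most LacZ points right of it, with Ccne1 at 0.65 and E2f2 at -1.02 in the NLS lines.

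The 2 responses at t48 share no library, and 25 of the 43 genes (58.1%) had a fitted decrease in the NLS lines and a fitted increase in the LacZ lines, against 26.5% of all genes tested. Cdc45, Tyms and Chaf1a were called in both and in opposite directions, which is 3 of the 17 lower calls in NLS lines and 3 of the 14 higher calls in LacZ lines. Rfc3 was called lower in both. The difference of the responses was tested as an interaction (NLS minus LacZ), which shares its libraries with both comparisons. It was called for 18 genes, 17 of them with a lower NLS response and 1, Ccne1, with a higher one. Over all genes tested, 11.2% were called lower, 12.1% higher and 23.3% in either direction, and the median was -0.29 for the 43 genes against 0.02 for all. Which construct, which line and which culture a library came from cannot be told apart in this comparison, since NLS and LacZ lines are different lines.

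Tk1 had the largest difference between responses (log2 fold change -0.73 ± 0.11 SE, adjusted p = 0.000560). In LacZ lines 10 and 12 it lay at 125 and 111 CPM at t0 and 147 and 135 CPM at t48, against the fall in the NLS lines given above. Tyms differed by -0.59 (adjusted p = 0.000263), with LacZ values of 77.6 and 71.1 CPM at t0 and 88.9 and 88.2 CPM at t48. Every LacZ line rose in these genes, and every NLS line fell. Chaf1a (-0.53), Uhrf1 (-0.57), Cdc45 (-0.48), Mcm2 (-0.42) and Mcm6 (-0.38) were also called in every fit without 1 library or 1 line, as were Tyms, Tk1 and Ccne1 (log2 fold change 0.63 ± 0.10 SE, adjusted p = 0.000594). Of these 8 genes, 7 kept the call in every alternative. In TPM, Chaf1a lay at 40.7 and 37.43 in LacZ lines 10 and 12 at t0. At t48 it lay at 39.75 and 40.11 TPM, so the LacZ groups overlapped on that scale. In NLS lines 6, 7 and 16 Chaf1a lay at 34.43, 40.37 and 34.47 TPM at t0. At t48 these lines held 34.1, 34.53 and 33.64 TPM, lower in each line but with overlapping groups. Orc1, Gins2, Slbp, Lig1, Dut, Mcm4, Cdc6, Prim1, E2f7 and Mcm5 were called and lost the call in at least 1 such fit. The count of 18 was 9 without LacZ t48 line 10 and 10 without LacZ t0 line 12. Pcna (-0.29, adjusted p = 0.115), Rrm2 (-0.12), Ccne2 (-0.05) and E2f1 (-0.02) were not called, and the block added Gins1, Pola1, Pcna, Rfc4, Rpa2, Fen1 and Chaf1b.

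The 2 kinds of line also differed in libraries labelled t0. At t0, 17 of the 43 genes were higher in NLS than in LacZ lines and 5 were lower, with 21.1% of all genes tested higher, 22.4% lower and 43.5% in either direction. The total of 22 of 43 was near the background for a comparison of different lines, and the lines cannot be told apart from the construct. Rrm2 differed most among the higher genes, at 106 and 96.1 CPM in LacZ lines 10 and 12 and 173, 189 and 172 CPM in NLS lines 6, 7 and 16 (log2 fold change 0.82 ± 0.09 SE, adjusted p = 5.26e-06). Cdc6 was at 47.8 and 41.8 CPM in LacZ and 73.3, 73.8 and 66.6 CPM in NLS lines (log2 fold change 0.67 ± 0.09 SE, adjusted p = 6.24e-05). Neither gene overlapped between the kinds of line. Of all genes tested, 30% had every NLS t0 library above both LacZ t0 libraries, and 32.1% had every one below both. Prim1 (0.52), Mcm6 (0.41), Lig1 (0.41), Rfc5 (0.39) and Mcm3 (0.33) were higher too, as were Gins1 (0.37) and Pola1 (0.35), and Mcm2 by 0.19. E2f2 was lower in NLS lines (log2 fold change -0.92 ± 0.18 SE, adjusted p = 0.000853), as were Cdt1, the licensing factor (-0.42), Ccne1 (-0.38), E2f1 (-0.26) and Gins3 (-0.26). Pcna (-0.00227), Slbp (0.10) and Ccne2 (0.07) were not called. Cdc6, Mcm3, Mcm6, Prim1, Rfc5, Lig1, Rrm2, Ccne1 and E2f2 kept the call without each library and line, and the count was 13 without either LacZ t0 library.

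At t48, 20 genes were lower and 6 higher in NLS than in LacZ lines, with 22.2% of all genes tested lower, 23.0% higher and 45.1% in either direction. Gins2 lay at 34.4 and 28.4 CPM in LacZ lines and 17.04, 19.8 and 19.8 CPM in NLS lines, without overlap (log2 fold change -0.73 ± 0.10 SE, adjusted p = 4.92e-05). Every NLS t48 library was below both LacZ t48 libraries in 32% of all genes tested and above both in 33.1%. Mcm5 was lower by -0.55, Cdt1 by -0.51, Uhrf1 by -0.57, Chaf1a by -0.50, Tk1 by -0.50 and Tyms by -0.39. E2f2 was the lowest relative to LacZ (log2 fold change -1.45 ± 0.19 SE, adjusted p = 3.45e-05). Rrm2 was still higher in NLS lines (log2 fold change 0.70 ± 0.09 SE, adjusted p = 1.91e-05): its LacZ t48 libraries held 103 and 86.1 CPM, below every NLS library at any label. Cdc6 (0.24), Mcm3 (0.19), Pole (0.21), Rfc5 (0.19) and Ccne1 (0.24) were the other higher calls. Ccne1 was thus called lower in NLS lines at t0 and higher at t48, and the t48 call was lost without LacZ t48 line 12 (adjusted p = 0.148). Pcna (-0.30), Mcm2 (-0.24), Slbp (-0.41) and E2f1 (-0.28) were called lower and lost the call without LacZ t48 line 10 (adjusted p = 0.186, 0.182, 0.0593 and 0.108). Ccne2 was not called (0.01). Mcm5, Cdc45, Gins2, Gins4, Rrm2, Tyms, Tk1, Dut, E2f2, Uhrf1 and Chaf1a kept the call without each library and line, and the count was 16 without LacZ t48 line 10. Orc6, an ORC subunit, was the gene of the 43 that was called in none of the comparisons between groups without the block, which added it at t48 against t6 in NLS lines.

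**Figure D4:**
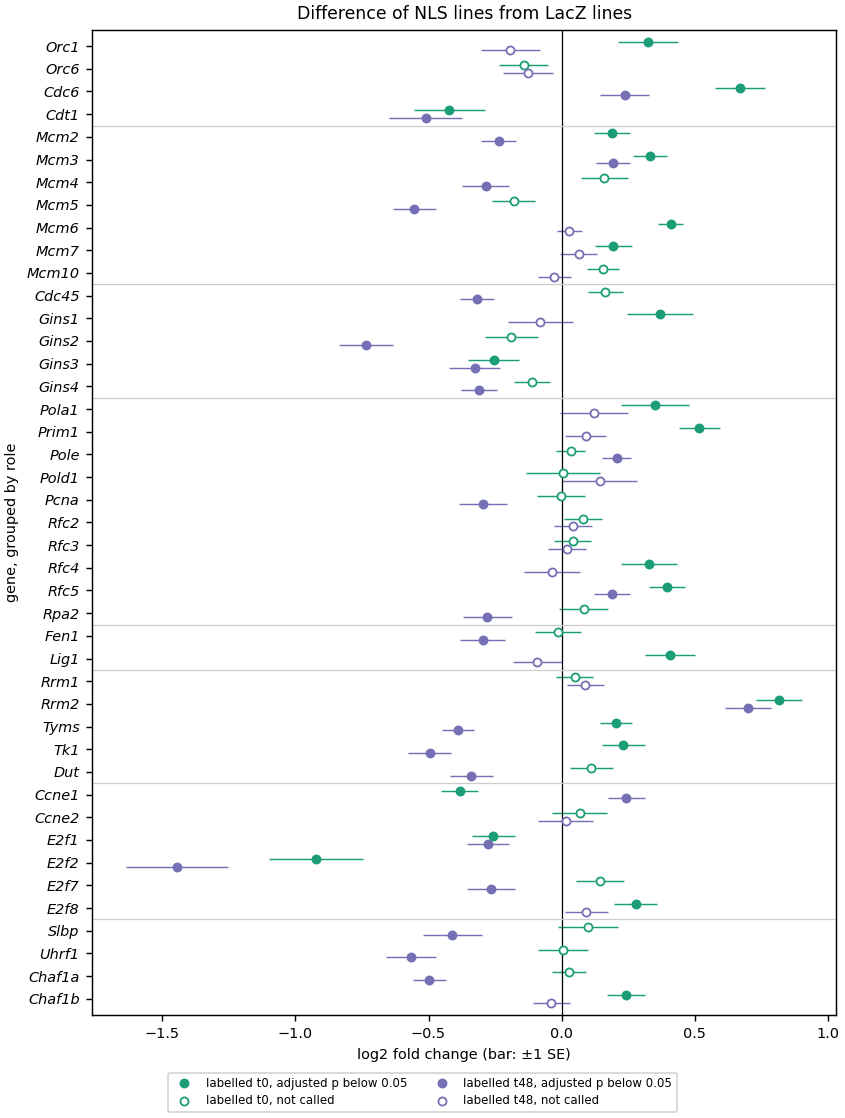
Log2 fold change (with 1 SE either way) of each gene in NLS against LacZ lines, at t0 (green, 3 against 2 libraries) and t48 (purple, 3 against 2); filled points have an adjusted p below 0.05. Rrm2 is higher in NLS lines at both labels (0.82 and 0.70), while Tk1, Tyms and Ccne1 change side.

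Cell lines were compared with the time label as a term in the fit. NLS lines 6 and 16, of which line 6 had the highest Adcy10 level and line 16 the lowest, gave no call among the 43 genes by edgeR or DESeq2, with 2 genes higher and 2 lower at an unadjusted p below 0.05. Of all genes, 0.882% were called higher, 1.38% lower and 2.26% in either direction. Their fitted log2 fold changes ran from -0.22 (Pold1) to 0.14 (Cdc6), with a median of 0.003. Line 7 was higher than line 16 in 7 of the 43 genes, with 11.8% of all genes higher, 10.8% lower and 22.6% called in either direction: Slbp (log2 fold change 0.29 ± 0.05 SE, adjusted p = 0.000643), Pola1 (log2 fold change 0.27 ± 0.05 SE, adjusted p = 0.000740), Lig1 (0.20), Mcm4 (0.19), Pcna (0.16), Rrm1 (0.13) and Rrm2 (0.13). No gene was lower at an unadjusted p below 0.05, and DESeq2 called 4 higher. Pola1, Lig1 and Slbp kept this call without each library, and the count was 3 without NLS t0 line 16, NLS t48 line 16 or NLS t0 line 7 and 4 without NLS t6 line 7. Against line 6, line 7 was higher in Pola1 (log2 fold change 0.32 ± 0.05 SE, adjusted p = 0.000462), Lig1 (0.19), Mcm4 (0.18), Pcna (0.17) and Slbp (0.16), 5 of 43, with 5.90% of all genes higher, 5.19% lower and 11.1% in either direction. Pola1 kept the call without each library, and the count was 1 without NLS t0 line 7, 2 without NLS t6 line 6 and 3 without NLS t6 line 7. LacZ lines 12 and 10 gave no call by either tool, where 0.0920% of all genes were called higher, 0.0307% lower and 0.123% in either direction, with 12 genes lower in line 12 and 0 higher at an unadjusted p below 0.05. Of the 43 fitted differences, 39 were negative, with a median of -0.10 against 0.006 over all genes.

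By library, the median deviation of the 43 genes from their own mean over 13 libraries was -0.09 on the log2 scale in NLS t48 line 6, -0.09 in line 7 and -0.10 in line 16, where 10 or 11 genes were above their mean. It was 0.06, 0.19 and 0.07 in NLS t6, with 27, 38 and 34 genes above. NLS t0 lines 6, 7 and 16 gave 0.01, 0.10 and -0.03, with 23, 34 and 17 genes above, so line 7 at t0 was above lines 6 and 16 at t6. LacZ t0 lines 10 and 12 gave -0.06 and -0.13. LacZ t48 lines differed from each other, at 0.11 with 32 genes above the mean in line 10 and -0.001 with 21 in line 12. The lowest of the 13 libraries was in NLS t48 for 18 genes and in LacZ t0 for 15, and the highest was in NLS t6 for 19, of which 16 were in line 7, and in LacZ t48 for 14, all in line 10. The counts by library were not made over all genes tested, so they have no background here.

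**Figure D5:**
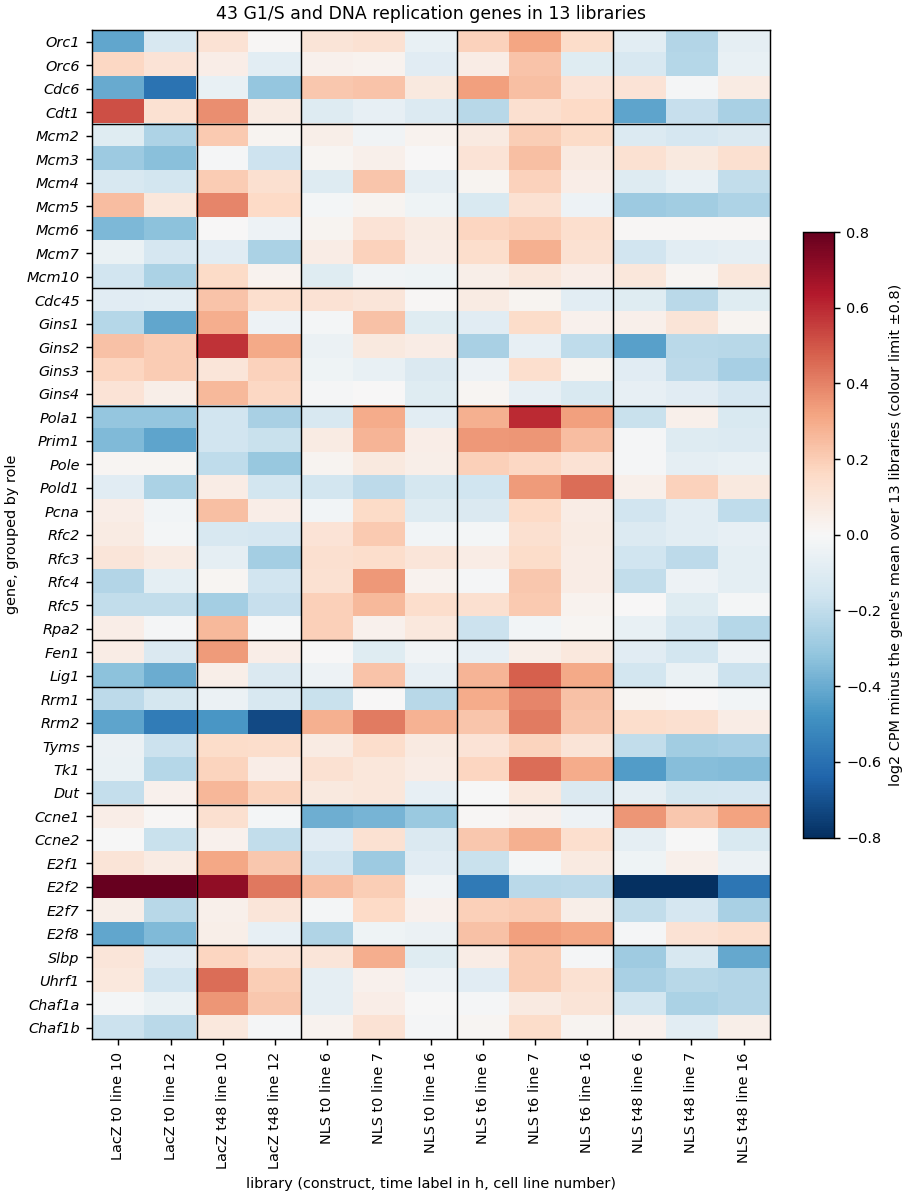
Log2 CPM of each gene minus its mean over 13 libraries (colour, limit 0.8 either way), with genes in rows grouped by role and libraries in columns grouped by construct and label. NLS t48 columns are mostly blue (median -0.09 to -0.10), Ccne1 is red there, and Rrm2 is blue in all 4 LacZ columns.

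Other genes of the same processes were read from lists. Of 38 further replication genes, 6 (15.8%) were called higher at t6 against t0 in NLS lines, where 11.6% of all genes were, and 6 (15.8%) were lower and 1 higher at t48 against t0, where 11.3% of all genes were lower. Both shares are near the background. At t48 against t6, 15 (39.5%) were lower against 13.6% of all genes, and at t48 in LacZ lines 9 (23.7%) were higher against 8.68%. The interaction was called for 11, 10 of them (26.3%) with a lower NLS response, against 11.2% of all genes. Rpa1, the large subunit of the single-strand binding complex, lay at 375, 406 and 381 CPM in NLS lines at t0 and 284, 275 and 289 CPM at t48, and at 264 and 258 and 315 and 303 CPM in LacZ lines (log2 fold change -0.70 ± 0.07 SE, adjusted p = 2.60e-05 for the interaction). Orc2 was the exception among the replication genes called at t48 in NLS lines, higher by 0.31. Pold4, a small subunit of polymerase delta, was higher at t48 in LacZ lines (0.68) and was called lower in the interaction (-0.94).

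Among 17 further nucleotide and chromatin assembly genes, 4 (23.5%) were lower at t48 against t0 in NLS lines and 5 (29.4%) higher in LacZ lines, against the 11.3% and 8.68% of all genes. Of 30 tested genes of E2F, RB and CDK control, 5 (16.7%) were higher and 2 lower at t6, and 2 were higher and 5 (16.7%) lower at t48 against t0, near the 11.6% and 11.3% of all genes. Ccnd1, cyclin D1, rose at t6 (log2 fold change 0.37 ± 0.07 SE, adjusted p = 0.00317) and was lower at t48 than at t6 (-0.65), and the CDK inhibitor gene Cdkn1b was higher at t48 than at t0 (0.41). Cdkn1a and Myc were not called between groups. In NLS line 7, Cdkn1a was lower than in line 16 (-0.75), and Myc was lower in lines 6 and 7 than in line 16 (-0.30 and -0.28).

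Of 24 tested G2/M genes, 6 (25%) were higher at t6 and 4 (16.7%) lower at t48 against t0 in NLS lines, against 11.6% and 11.3% of all genes. In LacZ lines at t48 11 (45.8%) were higher against 8.68%, and 10 (41.7%) were lower in the interaction against 11.2%. Mki67, a proliferation marker, was at 254, 385 and 281 CPM at t0, 411, 458 and 385 CPM at t6 and 281, 334 and 286 CPM at t48 in NLS lines 6, 7 and 16. It was called higher at t6 (log2 fold change 0.45 ± 0.13 SE, adjusted p = 0.0362), although line 7 at t0 was about level with line 16 at t6, and lower at t48 than at t6 (-0.48). Birc5, the mitotic survivin gene, fell at t48 against t0 in NLS lines (log2 fold change -0.31 ± 0.05 SE, adjusted p = 0.000737). Of 19 checkpoint and repair genes, 5 (26.3%) were lower and 1 higher at t48 against t0 in NLS lines and 5 (26.3%) were higher in LacZ lines, against the same 11.3% and 8.68%, with Rad54l, of homologous recombination, at -0.42 in the first. Line 7 was higher than line 16 in 17 of 24 G2/M genes and 12 of 19 checkpoint and repair genes, against the 11.8% of all genes given above.

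Reads of most genes came from 1 transcript model, but not of all. For Tyms, the model with the largest mean share, Tyms-205, is annotated as subject to nonsense-mediated decay and took 38.7 to 47.0% of the reads, and the coding model Tyms-201 took 35.6 to 43.1%. For Cdc45, model 201 took 49.6 to 52.2% of the reads in the 4 LacZ libraries and 54.4 to 67.7% in the 9 NLS libraries, which do not overlap. Cdc45 was singled out here, and how often other models separate the lines in this way was not counted. Ccne2-202 took 37.1 to 77.1%, and Rfc2-201 36.5 to 46.6% beside the models with retained introns named above. Summed counts, and so CPM and the tests on them, do not depend on this split within a gene. Summed TPM does, because each model is divided by its own length. Levels, orders and ratios given in TPM above thus carry it.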

How the data were processed

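Per the labels' protocols, Trizol RNA was turned into TruSeq mRNA libraries, stranded and sequenced from both ends. The deposited tables give estimated counts and TPM per transcript. Per the submitters' processing notes, the tool was Salmon 1.2.0 and the build GRCm38. Its transcript set and settings were not given in the sources used here. Salmon divides reads among models that share sequence, so genes with near copies are uncertain. Estimated counts of 115977 of 116546 transcripts (99.5%), matched to GENCODE M21, were summed over 35498 genes and rounded. Unmatched transcripts held 0.121 to 0.165% of reads. No libraries of a group agreed within sampling noise (lowest chi-square per degree of freedom 7.26).

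Genes were tested with edgeR 4.0.16 in R 4.3.3 (quasi-likelihood, TMM, edgeR's filter on low counts, robust), in 1 fit of 13 libraries with 5 group means and 8 residual degrees of freedom. All 43 genes were among the 13044 tested. Genes were called at a Benjamini-Hochberg adjusted p below 0.05. Comparisons of lines used group means plus line terms (5 residual degrees of freedom). Standard errors were derived from the test statistic. The script was tested on simulated data. Where the labels do not say that libraries came from separate cultures, p-values reflect only how far these libraries differ, which may be technical.

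The cell line number pairs libraries, since it names the same line in the labels. Deviations of same-line libraries from group means correlated at r = 0.025 to 0.282 in NLS lines and -0.02 in LacZ lines, and those of different NLS lines at -0.263 to 0.052.

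Named were genes called in a comparison, with the 8 largest changes in each direction, always Mcm2, Pcna, Ccne1, Ccne2, Cdc6, E2f1, Slbp and Rrm2, and up to 3 genes a direction from other lists. A gene of another list that the rule named is not reported here. Members and lists were chosen with earlier results of these data known. Up to 4 promoters were to be printed in order of p in the comparison with most calls. The condition that they touch no annotated exon was added after the promoters were seen. Alternatives were DESeq2 1.42.0, its size factors, no normalization factors, no filter, counts scaled from TPM, the compared libraries alone, the line as a block, and leaving out each library or line.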

Additional observations from a re-analysis of the deposited data

Results flagged for a closer look

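The response at t48 against t0 differed between NLS and LacZ lines for 18 of the 43 genes by the interaction test of edgeR (adjusted p below 0.05), and these are listed with the difference of the log2 fold changes, NLS minus LacZ. Helicase loading and helicase genes were Orc1 at -0.52, Cdc6 at -0.43, Mcm2 at -0.42, Mcm4 at -0.44, Mcm5 at -0.37, Mcm6 at -0.38, Cdc45 at -0.48 and Gins2 at -0.55. Synthesis and ligation were represented by Prim1 at -0.43 and Lig1 at -0.50. Nucleotide supply held Tyms at -0.59, Tk1 at -0.73 and Dut at -0.45. The repressor E2f7 was at -0.41, and the histone and chromatin genes Slbp, Uhrf1 and Chaf1a were at -0.51, -0.57 and -0.53. Ccne1, at 0.63, was the gene with the opposite sign. NLS and LacZ lines are different lines, so line and construct cannot be told apart.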

How the results depend on the processing

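No called gene changed sign under any alternative run. Of 2252 recomputed values of the 140 called gene comparisons, 1715 stayed below the threshold and 537 did not. Without any 1 library the number of the 43 genes called was 3 to 7 for NLS t6 against t0, 10 to 15 for NLS t48 against t0, 12 to 22 for NLS t48 against t6, 3 to 12 for LacZ t48 against t0, 9 to 19 for the interaction, 13 to 20 for NLS against LacZ at t0, 16 to 25 at t48, 0 to 1 for line 6 against 16, 3 to 7 for line 7 against 16, 1 to 5 for line 7 against 6 and 0 for LacZ line 12 against 10. Where a LacZ group was left with 1 library, it is assumed to vary like the other groups. Without line 16, 6 or 7, t48 against t0 in NLS lines gave 9, 5 and 9. T6 against t0 gave 3 without line 16 and 4 without line 6, and t48 against t6 gave 10 without line 6. LacZ t48 against t0 gave 0 without line 10 and 2 without line 12. Without line 10 the interaction gave 9 and NLS against LacZ at t48 16, and without line 12 NLS against LacZ at t0 gave 14. The line as a replicate block raised the calls to 13 for t6 against t0 and 28 for t48 against t0 in NLS lines, ended no call of the 43 genes, and raised the calls over all genes to 4527 from 2716 and to 5188 from 3402. It gave 4308 in place of 2419 for LacZ t48 against t0 and 4875 in place of 3045 for the interaction. No paired analysis was possible for NLS against LacZ because they are different lines. With only the compared libraries, t6 against t0 gave 3, line 7 against 6 gave 1 and LacZ line 12 against 10 gave 3. LacZ t48 against t0 gave 7 without normalization factors (5 higher, 2 lower) and 10 on counts scaled from TPM (7 higher, 3 lower). On counts scaled from TPM, line 7 against 16 gave 3 and line 7 against 6 gave 1. DESeq2 gave 4 and 3 for these line comparisons, and 1532 and 761 over all genes in place of 2950 and 1446. Without the filter on low counts, LacZ line 12 against 10 gave 1. The causes were not tested, beyond the fewer libraries in fits that leave some out. E2f2, Orc1 and Gins3 have the fewest reads, so their changes are the least precise.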
